A study of Homo sapiens with 10 samples.

Results

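The interferon-stimulated genes are the genes that cells switch on when interferons bind their surface receptors. Here they were taken from a fixed list of 55 gene symbols that also holds the receptor chains and 2 of the kinases that carry the signal, and 54 of the 55 had a probe set among the 17492 genes with a symbol. STAT2 was not analysed here. Where a gene had more than 1 probe set, the one with the highest mean over all arrays stood for it.

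The tumours were grown under the skin of BALB/c nude mice from A375, an established line of human skin melanoma cells. These mice lack mature T cells but keep macrophages and natural killer cells. Once tumours reached 100 mm3, the mice drank either vehicle (5 tumours) or doxycycline (5 tumours), the latter to switch on Omomyc, a dominant-negative fragment of MYC, in the tumour cells. All tumours were excised 7 days later, and each gave 1 Affymetrix array. No tumours without Omomyc received doxycycline, so effects of Omomyc and of doxycycline cannot be told apart. Values are log2 expression values made with RMA, a method that corrects, scales and summarises probe signals, and a difference of 1 on this scale is a 2-fold change. The labels call the tumours biological replicas, and p-values measure the spread between them.

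Interferons alpha and beta bind the IFNAR1 and IFNAR2 chains, and interferon gamma binds IFNGR1 and IFNGR2. The kinases JAK1, TYK2 and JAK2 sit on these receptors and pass the signal to transcription factors by phosphorylation. A complex that holds IRF9 then binds the interferon-stimulated response element (ISRE), while the gamma-activated site (GAS) mainly serves interferon gamma. The genes so induced encode sensors of foreign RNA, enzymes that cut or edit nucleic acids, and proteins that block viral entry and replication.

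More of these genes rose than fell. Of the 54 genes, 18 were higher in doxycycline tumours (33.3%) and 1 was lower at an adjusted p under 0.05 in limma, while 35 did not pass. Over all 17492 genes tested, 5.03% were called higher and 5.95% lower. The median change over the 54 genes was 0.41, against 0.017 over all genes, and 43 of the 54 changes were above 0. In 17 of the genes all 5 doxycycline tumours lay above all 5 vehicle tumours and in 1 all lay below, 33.3% together, beside 11.8% of all genes. The largest rises were those of SAMD9L, IFIT2, IRF1, IFIT3 and RSAD2, and the gene that fell was IFIT5.

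**Figure D1:**
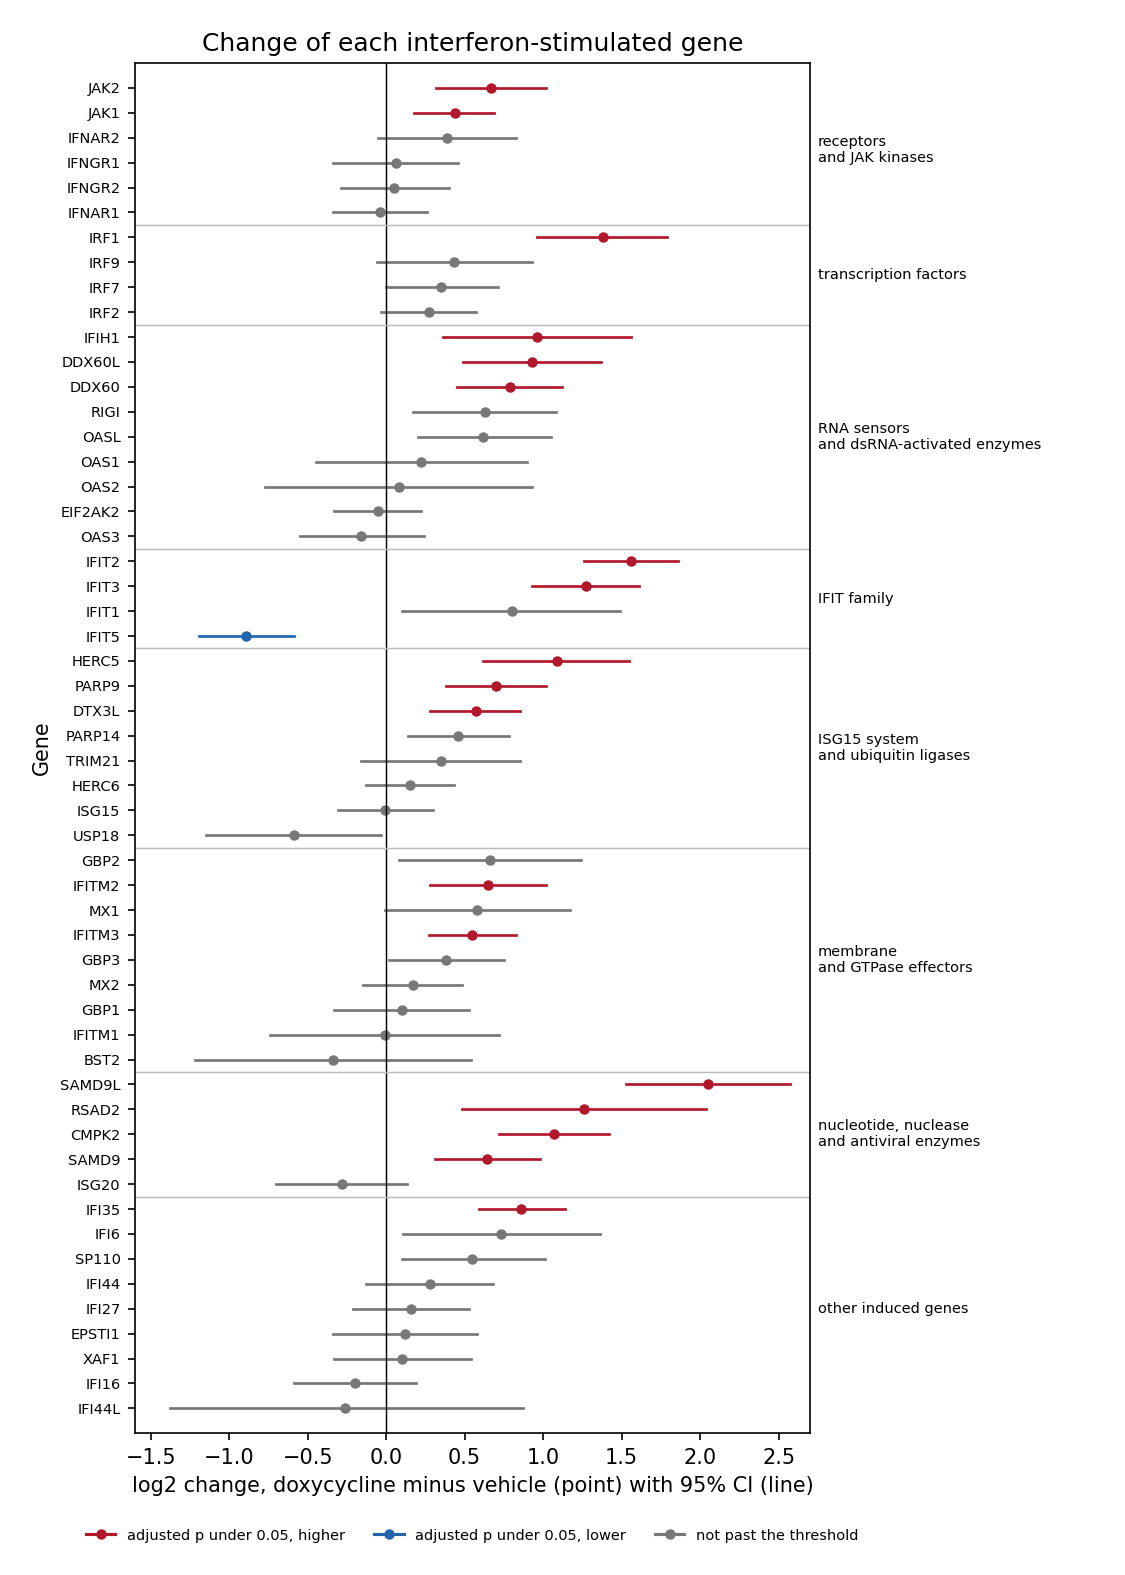
Change of each of the 54 interferon-stimulated genes, grouped by role, as doxycycline minus vehicle on the log2 scale (point) with the 95% confidence interval from limma (line), n = 5 tumours per group. Red marks the 18 genes called higher, blue the 1 called lower (IFIT5), and grey the 35 that did not pass; SAMD9L lies farthest to the right, at 2.05.

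The stretches before the start sites of 8 of these genes are printed to show the response elements that the signal is known to act on, in genes that rose, fell or did not pass. They come from RefSeq (GRCh38.p14), run 5′ to 3′ along the gene's own strand and end at the base before the start site; for IFIT3, which has more than 1 start in the table, the start with the highest coordinate was taken. Capitals mark the letters GAAANNGAAA or, for the other strand, TTTCNNTTTC (the core of an ISRE), and in IRF1 the letters TTCNNNGAA (the core of a GAS), which read the same on both strands.
IFIT3, called higher (chr10:89332369-89332528, plus strand): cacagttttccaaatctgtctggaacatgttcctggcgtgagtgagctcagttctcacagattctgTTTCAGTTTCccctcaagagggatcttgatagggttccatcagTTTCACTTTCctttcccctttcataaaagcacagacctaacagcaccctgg
HERC5, called higher (chr4:88456959-88457118, plus strand): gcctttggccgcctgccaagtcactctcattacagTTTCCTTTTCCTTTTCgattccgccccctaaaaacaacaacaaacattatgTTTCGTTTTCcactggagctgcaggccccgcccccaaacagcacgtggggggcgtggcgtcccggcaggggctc
DDX60, called higher (chr4:168318753-168318912, minus strand): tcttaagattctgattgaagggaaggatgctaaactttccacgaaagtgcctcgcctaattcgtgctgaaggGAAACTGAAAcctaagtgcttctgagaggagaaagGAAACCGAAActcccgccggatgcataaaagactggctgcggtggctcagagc
IFITM3, called higher (chr11:320861-321020, minus strand): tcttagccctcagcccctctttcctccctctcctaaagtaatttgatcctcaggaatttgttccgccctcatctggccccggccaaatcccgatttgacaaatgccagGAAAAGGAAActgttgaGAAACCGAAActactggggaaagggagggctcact
IRF1, called higher (chr5:132490774-132490933, minus strand): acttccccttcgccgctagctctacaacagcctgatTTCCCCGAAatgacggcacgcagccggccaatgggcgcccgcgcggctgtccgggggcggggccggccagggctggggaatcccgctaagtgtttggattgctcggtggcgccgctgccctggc
IFIT5, called lower (chr10:89414408-89414567, plus strand): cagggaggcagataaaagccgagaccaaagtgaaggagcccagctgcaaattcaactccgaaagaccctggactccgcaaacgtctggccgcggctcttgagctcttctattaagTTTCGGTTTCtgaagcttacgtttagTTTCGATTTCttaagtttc
ISG15, not called (chr1:1013337-1013496, plus strand): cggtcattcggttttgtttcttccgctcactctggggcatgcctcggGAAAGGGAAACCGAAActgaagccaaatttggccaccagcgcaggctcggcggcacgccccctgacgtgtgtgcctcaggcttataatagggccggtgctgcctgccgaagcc
IFI44L, not called (chr1:78620268-78620447, plus strand): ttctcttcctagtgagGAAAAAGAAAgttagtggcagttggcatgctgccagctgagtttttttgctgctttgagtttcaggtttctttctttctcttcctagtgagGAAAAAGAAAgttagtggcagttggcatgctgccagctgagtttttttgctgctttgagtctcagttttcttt

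Of the 54 genes, 44 had an entry in the RefSeq promoter table. The ISRE letters occurred on either strand within 250 bases before a start in 24 of the 44 (54.5%), against 1014 of all 27305 genes in the table (3.71%). They occurred in 9 of the 16 genes called higher with an entry (56.2%) and in 14 of the 27 not called (51.9%), as well as before IFIT5. The GAS letters occurred in 13 of the 44 (29.5%) and in 8.09% of all genes, with 3 of the 16 called higher and 10 of the 27 not called. At 5 starts the letters of both motifs overlapped. SAMD9L, with the largest change, held neither within this window. These matches describe the letters in the reference sequence alone. IFNAR2, IRF2, IRF7, OAS2, OASL, IFIT2, USP18, IFITM2, MX2 and GBP2 had no entry.

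Among the receptor chains, changes were small and none passed. IFNGR2, the signalling chain of the interferon gamma receptor, read 9.67, 9.80, 9.61, 9.70 and 9.57 in vehicle tumours 1 to 5 and 9.82, 9.69, 9.94, 10.02 and 9.15 in doxycycline tumours 1 to 5. The groups overlapped, with doxycycline tumour 5 below all vehicle tumours (change 0.05, 95% CI -0.29 to 0.40, adjusted p = 0.888). IFNAR1 changed by -0.04 and IFNGR1 by 0.06. IFNAR2, the high-affinity chain for interferons alpha and beta, changed by 0.39 (adjusted p = 0.26).

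Both kinases of the list rose. They made up 2 of the 6 receptor and kinase genes (33.3%), beside 5.03% of all genes called higher. JAK2, which serves the interferon gamma receptor, read 5.92, 5.63, 5.29, 6.09 and 5.81 in vehicle tumours and 6.14, 6.63, 6.41, 6.54 and 6.38 in doxycycline tumours. All doxycycline values lay above all vehicle values, and the change was 0.67 ± 0.16 (SE; adjusted p = 0.0181). JAK1, used by both receptors, read 7.88, 8.02, 7.70, 7.69 and 7.93 against 8.12, 8.42, 8.23, 8.29 and 8.33. Its groups did not overlap either, and it rose by 0.44 ± 0.12 (SE; adjusted p = 0.031). The call of JAK1 was lost without vehicle tumour 1, 3 or 4 or doxycycline tumour 2, 4 or 5 (adjusted p from 0.0511 to 0.0827). TYK2, the partner of JAK1 at the type I receptor, was measured outside the list and changed by 0.24 (95% CI -0.03 to 0.51), short of the threshold.

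Of the 4 transcription factors measured, 1 rose (25.0%, beside 5.03% of all genes called higher). A single gene of so few is no result about the group. IRF1, which activates both interferon-induced and antigen presentation genes, read 4.81, 5.27, 5.20, 4.54 and 5.52 in vehicle and 6.22, 6.24, 6.43, 6.79 and 6.55 in doxycycline tumours. The groups were separate, and the rise was 1.38 ± 0.19 (SE; 2.59-fold; adjusted p = 0.000806). IRF9, the DNA-binding part of the complex on the ISRE, read 6.77, 6.76, 6.33, 6.72 and 7.19 against 7.45, 7.35, 7.77, 6.65 and 6.72. Its doxycycline tumours 1 to 3 lay above all vehicle tumours, while tumours 4 and 5 lay within their range, and the change of 0.43 did not pass (adjusted p = 0.271). IRF7, which drives interferon genes, changed by 0.35 and IRF2, a repressor related to IRF1, by 0.27, and neither passed.

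Among the 9 genes that sense or respond to double-stranded RNA, 3 rose (33.3%, beside 5.03% of all genes called higher). DDX60, a helicase linked to RNA sensing, read 5.25, 4.81, 5.04, 4.80 and 4.61 in vehicle and 5.70, 5.86, 5.81, 5.28 and 5.77 in doxycycline tumours, a rise of 0.79 ± 0.155 (SE; adjusted p = 0.00659). Its neighbour DDX60L read 5.23, 5.48, 4.78, 5.25 and 5.33 against 5.85, 6.02, 5.96, 5.99 and 6.89, and rose by 0.93 ± 0.20 (SE; adjusted p = 0.0116). In both genes the groups were separate, though doxycycline tumour 4 was low for DDX60 and tumour 5 was high for DDX60L. IFIH1, which encodes the RNA sensor MDA5, read 3.86, 4.77, 3.44, 4.55 and 4.89 in vehicle and 5.53, 5.36, 5.44, 4.67 and 5.30 in doxycycline tumours. Doxycycline tumour 4 lay inside the vehicle range, and IFIH1 rose by 0.96 ± 0.28 (SE; adjusted p = 0.0435). That call was lost without vehicle tumour 1, 3 or 4 or doxycycline tumour 1, 2, 3 or 5 (adjusted p from 0.0614 to 0.106).

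RIGI, the sensor of RNA with a 5′ triphosphate, changed by 0.63 and missed the threshold (adjusted p = 0.0788). Its doxycycline tumours lay above all vehicle tumours, but barely so, with 5.43 in doxycycline tumour 5 and 5.42 in vehicle tumour 1. EIF2AK2, the kinase that stops translation on binding double-stranded RNA, read 8.69, 8.71, 8.72, 8.92 and 8.84 against 8.73, 8.98, 8.88, 8.46 and 8.55. Doxycycline tumour 2 lay above all vehicle tumours and tumours 4 and 5 below all of them, and the change was -0.05 (95% CI -0.33 to 0.22). The oligoadenylate synthetases, which activate an RNA-cutting enzyme, did not pass either: OASL changed by 0.62 (adjusted p = 0.0628), OAS1 by 0.22, OAS2 by 0.08 and OAS3 by -0.16.

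The IFIT genes lie in 1 cluster on chromosome 10 and encode proteins that bind viral RNA. Of the 4, 2 rose and 1 fell, beside 5.03% and 5.95% of all genes. IFIT2 read 3.85, 4.38, 4.38, 4.09 and 4.30 in vehicle and 5.97, 5.56, 5.74, 5.67 and 5.86 in doxycycline tumours. The lowest doxycycline value lay above the highest vehicle value by more than the whole range of either group, and the rise was 1.56 ± 0.14 (SE; 2.95-fold; adjusted p = 4.26e-05). IFIT3 read 5.15, 5.70, 5.52, 5.71 and 5.78 against 6.66, 6.98, 7.16, 6.60 and 6.81, a rise of 1.27 ± 0.16 (SE; 2.41-fold; adjusted p = 0.000365). Its upstream stretch holds a pair of ISRE matches (above).

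IFIT5 went the other way. It read 5.77, 5.99, 6.19, 5.84 and 5.97 in vehicle and 4.97, 5.00, 5.31, 5.28 and 4.76 in doxycycline tumours. All doxycycline tumours lay below all vehicle tumours, and IFIT5 fell by 0.89 (95% CI -1.19 to -0.59; adjusted p = 0.00177), although its upstream stretch also holds a pair of ISRE matches. IFIT1, next to IFIT5 among the protein-coding genes of the region, changed by 0.80 with a wide interval (95% CI 0.10 to 1.49; adjusted p = 0.141). Its values in doxycycline tumours were 5.40, 6.13, 6.66, 5.13 and 5.26, and the vehicle values ran from 4.10 to 5.39, so that tumours 4 and 5 lay within the vehicle range.

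**Figure D2:**
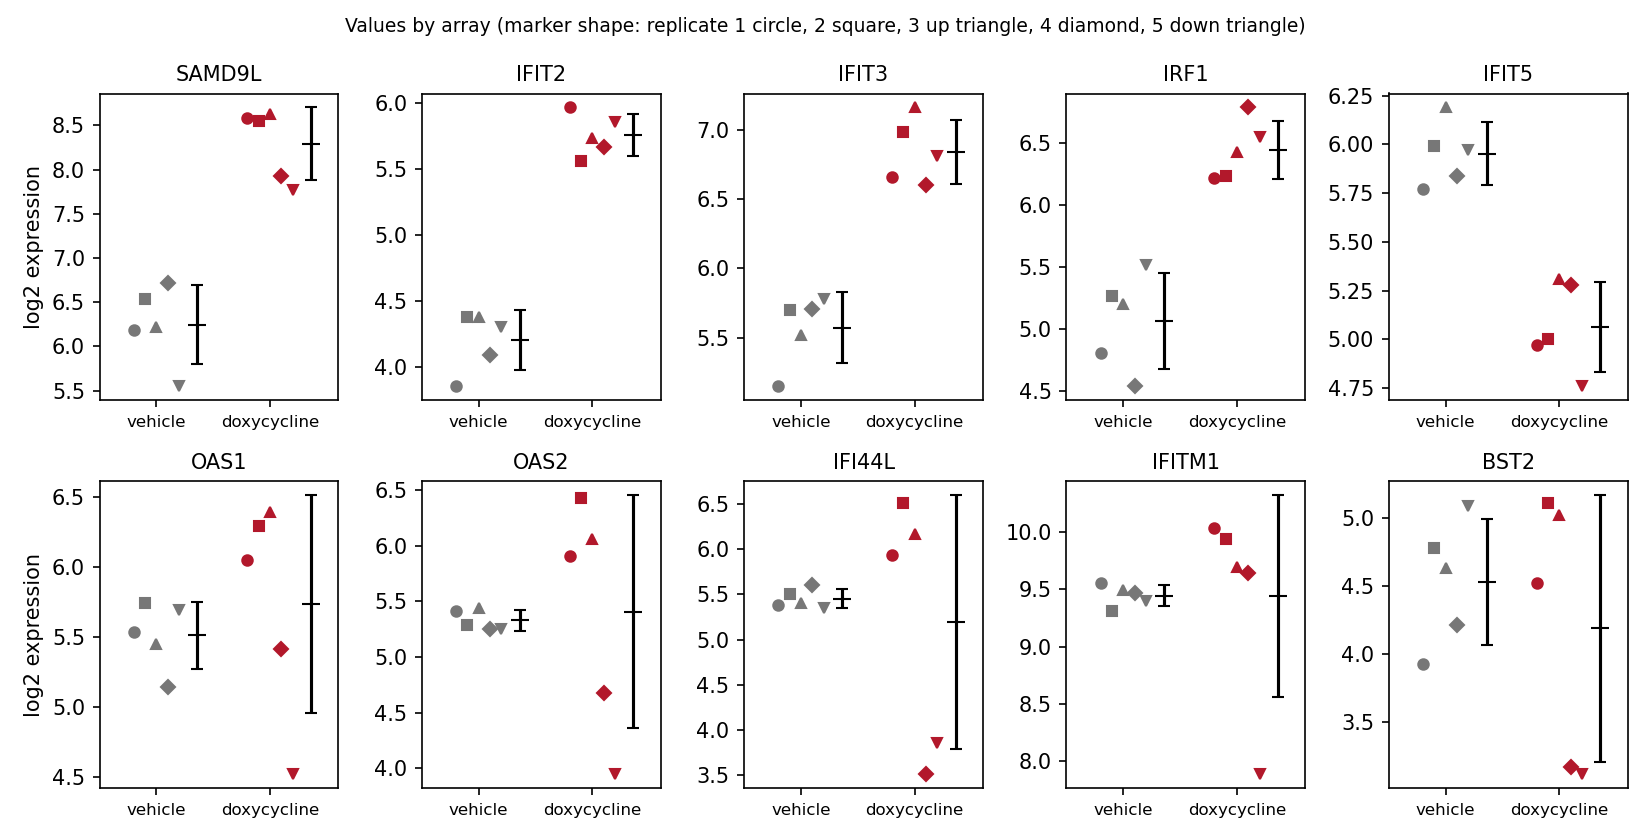
Log2 expression of 10 interferon-stimulated genes in each tumour (1 point per array, marker shape giving the replicate number), with the mean and SD beside each group (n = 5). The top row shows genes whose groups did not overlap, SAMD9L, IFIT2, IFIT3 and IRF1 higher and IFIT5 lower; in the bottom row doxycycline tumour 5 is the lowest array for all 5 genes except IFI44L, where tumour 4 is lowest at 3.51.

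ISG15 is a ubiquitin-like protein that HERC5 attaches to other proteins and USP18 removes. ISG15 itself changed by -0.0057 (95% CI -0.31 to 0.30), or by 0.003 after median centring of the arrays, with a range of 4.88 to 5.38 in vehicle and 4.93 to 5.41 in doxycycline tumours. HERC5 read 4.26, 4.16, 3.73, 4.13 and 3.94 against 5.12, 4.66, 5.64, 5.60 and 4.63, with separate groups and a rise of 1.09 ± 0.21 (SE; adjusted p = 0.00657). USP18, which also damps signalling at the type I receptor, changed by -0.59 (adjusted p = 0.177), and passed only without vehicle tumour 2 (-0.80, adjusted p = 0.0416). HERC6 changed by 0.15 and the antibody receptor TRIM21 by 0.35, and neither passed.

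PARP9 and DTX3L, which act together as a ubiquitin ligase complex, rose together. Their nearest RefSeq starts lie 38 bases apart on chromosome 3 and point away from each other. PARP9 read 6.70, 7.01, 7.03, 7.22 and 7.31 in vehicle and 7.70, 8.01, 7.94, 7.55 and 7.58 in doxycycline tumours, a rise of 0.70 ± 0.15 (SE; adjusted p = 0.00996). DTX3L read 7.24, 6.90, 7.45, 7.25 and 7.08 against 7.86, 7.89, 7.81, 7.60 and 7.60, a rise of 0.57 ± 0.13 (SE; adjusted p = 0.0155). In both genes the groups were separate and doxycycline tumours 4 and 5 were the lowest of their group. PARP14, another ADP-ribosyltransferase, read 8.07, 8.19, 8.09, 8.22 and 8.34 against 8.63, 8.80, 9.05, 8.33 and 8.40. Tumour 4 fell inside the vehicle range, and the change of 0.46 missed the threshold (adjusted p = 0.068).

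Of the 9 genes for membrane proteins and large GTPases that block virus entry, release or replication, 2 rose (22.2%). Over all genes 5.03% were called higher. IFITM3 read 11.45, 11.17, 11.30, 11.31 and 11.38 in vehicle and 11.97, 11.79, 11.69, 12.21 and 11.71 in doxycycline tumours, a rise of 0.55 ± 0.13 (SE; adjusted p = 0.0163) with separate groups. IFITM2 read 10.27, 9.66, 9.96, 10.15 and 9.86 against 10.71, 10.58, 10.29, 11.11 and 10.47, and rose by 0.65 ± 0.17 (SE; adjusted p = 0.0288), also without overlap. The call of IFITM2 was lost without vehicle tumour 2, 3 or 5 or doxycycline tumour 1, 2 or 4 (adjusted p from 0.0507 to 0.0692). IFITM1, IFITM2 and IFITM3 are close relatives, and how far their probe sets also read each other was not analysed here.

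The other genes of that group did not pass. MX1, a dynamin-like GTPase, changed by 0.58 (95% CI -0.01 to 1.17) and MX2 by 0.17. The guanylate-binding genes GBP2, GBP3 and GBP1 changed by 0.66, 0.38 and 0.10. GBP2 read 6.85, 6.97, 7.08 and 6.32 in doxycycline tumours 1 to 4, above all vehicle tumours, and 5.57 in tumour 5, below all of them.

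Of the 5 genes for nucleotide, nuclease and other antiviral enzymes, 4 rose (80.0%, beside 5.03% of all genes called higher). SAMD9L had the largest change of the 54 genes. SAMD9L, a growth-restraining gene induced by interferon, read 6.19, 6.54, 6.22, 6.72 and 5.55 in vehicle and 8.59, 8.55, 8.63, 7.93 and 7.77 in doxycycline tumours. Even the lowest doxycycline value was above the highest vehicle value by over 1, and the rise was 2.05 ± 0.24 (SE; 4.14-fold; adjusted p = 0.000268). Its neighbour SAMD9, a related gene, read 7.47, 7.52, 7.73, 7.79 and 7.59 against 8.05, 8.34, 8.73, 8.23 and 7.95, a smaller rise of 0.64 ± 0.15 (SE; adjusted p = 0.018).

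CMPK2, a mitochondrial nucleotide kinase, read 4.63, 5.35, 5.10, 4.58 and 4.84 in vehicle and 5.86, 5.82, 6.05, 6.20 and 5.89 in doxycycline tumours, rising by 1.07 ± 0.16 (SE; adjusted p = 0.00145). RSAD2 encodes viperin, which makes a chain-terminating nucleotide. A start of RSAD2 (chr2:6865885) lies 22 bases from a start of CMPK2 on the other strand. The ISRE letters were found before a further start of RSAD2 (chr2:6877777) and not before this one. RSAD2 read 3.13, 2.91, 2.82, 2.93 and 2.53 against 3.83, 4.35, 5.59, 3.73 and 3.13. Tumour 5 lay level with the highest vehicle tumour while tumour 3 was far higher, so the rise of 1.26 carried a wide error (SE 0.36; adjusted p = 0.0411). It was lost without any 1 of the vehicle tumours or doxycycline tumour 1, 2 or 4 (adjusted p from 0.0524 to 0.0882). ISG20, an exonuclease, changed by -0.28 and did not pass.

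Of the 9 remaining induced genes, 1 rose. IFI35 read 5.90, 5.91, 6.29, 6.05 and 6.21 in vehicle and 7.04, 7.01, 7.09, 6.78 and 6.78 in doxycycline tumours, with separate groups and a rise of 0.86 ± 0.13 (SE; adjusted p = 0.0012). IFI16, a sensor of DNA, read 9.52, 9.90, 9.78, 9.75 and 9.76 against 9.61, 9.99, 9.76, 9.42 and 8.94. Doxycycline tumours 4 and 5 were below all vehicle tumours, and the change of -0.20 did not pass. IFI6 changed by 0.73 (adjusted p = 0.133) and the nuclear body gene SP110 by 0.55 (adjusted p = 0.117). IFI44, IFI27, EPSTI1 and XAF1 changed by 0.28, 0.16, 0.12 and 0.10, and IFI44L by -0.26.

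**Figure D3:**
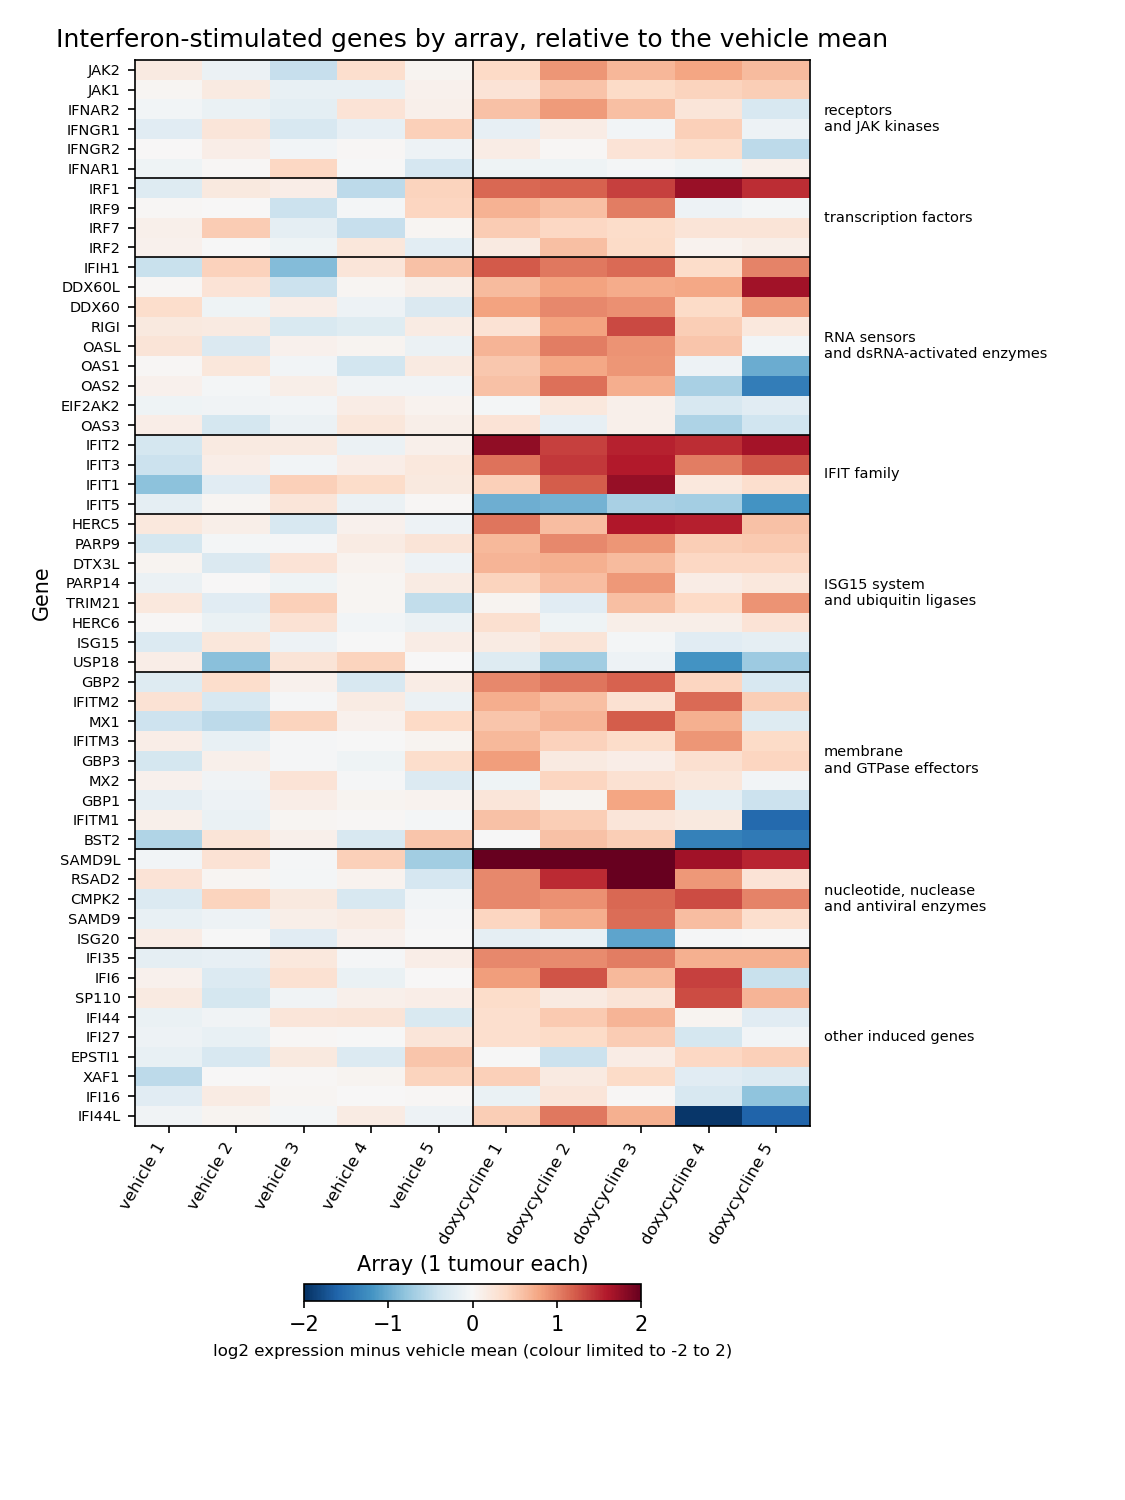
Log2 expression of the 54 interferon-stimulated genes (rows, grouped by role) in each of the 10 arrays (columns), relative to the gene's vehicle mean; red is higher and blue lower, with colours limited to -2 to 2. Doxycycline columns 1 to 3 are red in most rows, while columns 4 and 5 mix red rows such as IFIT2 and IRF1 with blue rows such as IFI44L, OAS2 and BST2.

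The 5 doxycycline tumours did not respond alike. Averaged over the 54 genes, vehicle tumours stood at 6.20 ± 0.05 and those given doxycycline at 6.63 ± 0.23 (SD, n = 5 per group). Relative to the vehicle mean, doxycycline tumours 1 to 5 stood at 0.497, 0.575, 0.672, 0.307 and 0.106, and vehicle tumours from -0.0715 to 0.0587. All 5 doxycycline tumours were above the highest vehicle tumour, tumour 5 narrowly. In tumours 1, 2 and 3, 41, 39 and 39 of the 54 genes lay above all 5 vehicle arrays and 1, 2 and 2 below all of them. Tumour 4 had 26 genes above and 10 below, and tumour 5 had 22 above and 14 below. Over all genes these shares hardly varied, from 24.8% to 28.2% above and from 23.3% to 25.5% below. Even so, these arrays also differed over all genes. When limma weighted the arrays over all genes, doxycycline tumours 4 and 5 had the lowest weights, 0.574 and 0.507, against 0.888 to 1.62 elsewhere. The SD was larger among doxycycline tumours in 64.8% of the 54 genes and in 64.2% of all genes.

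**Figure D4:**
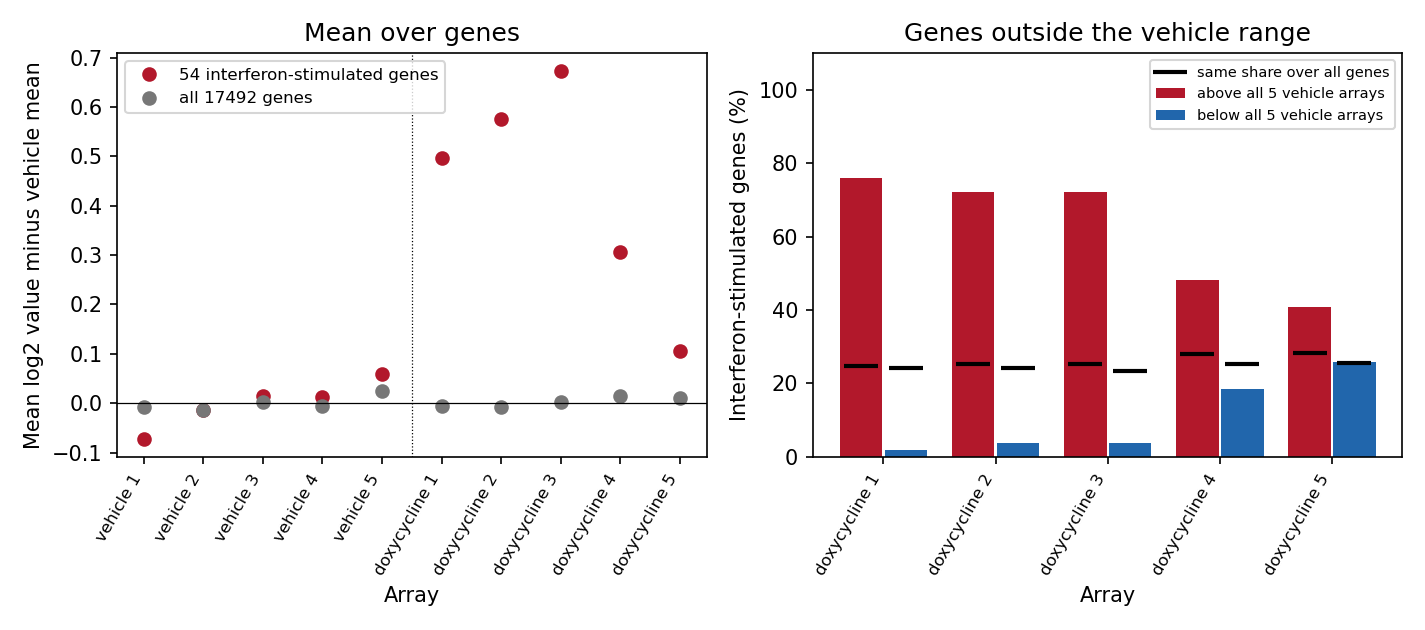
Left, mean log2 value per array over the 54 interferon-stimulated genes (red) and over all 17492 genes (grey), relative to the vehicle mean. Right, share of the 54 genes above (red bars) or below (blue bars) all 5 vehicle arrays in each doxycycline tumour, with black dashes for the same share over all genes; the red bars go from 75.9% in tumour 1 to 40.7% in tumour 5 and the blue bars from 1.85% to 25.9%.

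The contrast was sharpest in genes named here after their values were seen. OAS2 read 5.91, 6.43 and 6.06 in doxycycline tumours 1 to 3, all above the vehicle range of 5.25 to 5.44, and 4.68 and 3.95 in tumours 4 and 5, both below it. IFI44L read 5.94, 6.51 and 6.17, then 3.51 and 3.85, around a vehicle range of 5.35 to 5.61. These genes had SDs of 1.04 and 1.40 among the doxycycline tumours and of 0.0889 and 0.108 among the vehicle tumours. Over all genes the median SD was 0.284 among doxycycline and 0.231 among vehicle tumours.

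OAS1 read 6.05, 6.29, 6.39, 5.41 and 4.52 in doxycycline tumours, with a vehicle range of 5.14 to 5.74. BST2, which tethers virus particles to the cell surface, read 4.52, 5.11, 5.02, 3.17 and 3.12, with vehicle from 3.93 to 5.09. IFITM1 read 10.03, 9.94, 9.69 and 9.64 in tumours 1 to 4, above every vehicle tumour, and 7.89 in tumour 5, below all of them. Its change over the groups was -0.0087, or 0.02 after a second quantile normalization. In OAS1 and IFITM1 the last tumour alone went below the vehicle range.

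Doxycycline tumours 4 and 5 were known from earlier work on these values to stand apart, so the fit was repeated without both. Since those arrays were chosen for their values in these data, the p-values of this fit cannot be read as usual, and its calls are given as a description. It called 24 of the 54 genes higher, beside 4.8% of all genes, and 1 lower, again IFIT5, beside 5.34% (10.1% of all genes in either direction). Of these 24, 15 were also called with all arrays, and the median change over the 54 genes was 0.60. IFNAR2, IRF9, OAS1, OAS2, OASL, PARP14, GBP2, IFI6 and IFI44L gained the call, and in OAS2 and IFI44L both arrays left out were below all vehicle arrays. JAK1, JAK2 and IFITM2 lost it. Without tumour 5 alone, 22 were higher and 1 lower, beside 5.19% and 5.79% of all genes.

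The uneven tumours also differed in other ways. The MYC probe set, which may read Omomyc as well as MYC itself, was at 7.56, 7.96, 7.24, 7.74 and 7.96 in doxycycline tumours 1 to 5 and from 6.13 to 6.58 in vehicle tumours, so tumours 4 and 5 were not low. The mean over 16 macrophage and monocyte markers, relative to vehicle, was 0.183, 0.00658, 0.112, 0.315 and 0.423 in tumours 1 to 5. It was highest in tumours 4 and 5, where the mean over the interferon-stimulated genes was lowest. Most of these markers were dim, below the array medians of 5.43 to 5.53. CD68 and LYZ lay above the medians and went different ways in tumour 5. There CD68 was highest of all arrays, at 9.70, and LYZ was lowest of the doxycycline tumours, at 6.57. The marker mean ranged from 3.93 to 4.12 in vehicle and from 4.02 to 4.44 in doxycycline tumours, and 2 of the 16 markers were called, CD14 and LYZ, both higher (12.5%, beside 5.03% of all genes called higher and 5.95% called lower, so that the count is no result about these markers). The part of these markers in the result was not tested.

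The mean over 11 melanoma markers, relative to vehicle, was 0.189, 0.587, 0.361, 0.426 and -0.227 in doxycycline tumours 1 to 5. In tumour 5, 5 of the 11 lay below all vehicle tumours, 5 within their range and 1, PAX3, above. Among those below, the lineage factor SOX10 ranged from 7.19 to 7.60 in vehicle tumours and read 6.49 in doxycycline tumour 5, and MIA read 7.69 there against 8.04 to 8.57 in vehicle. ERBB3 was called higher over the group (change 1.67), with 3.97 in tumour 5. The pigment genes PMEL, MLANA, TYR and TYRP1 ranged from 2.03 to 4.10 in vehicle tumours, below the array medians of 5.43 to 5.53. Lists of 11 T and NK cell, 7 plasmacytoid dendritic cell, 8 endothelial and 7 fibroblast markers held 0 called genes in limma. Over all genes 5.03% were called higher and 5.95% lower. Lists this short can hold 0 calls at such shares, so the count is no result about these markers. At an unadjusted p under 0.05 in limma the lists held 1, 0, 0 and 4, beside 4307 of all 17492 genes. The endothelial mean stood 0.522 above vehicle in tumour 5. In whole tumours, fewer cells of a type and less RNA per cell cannot be told apart, and RNA of the mouse host can bind human probes. Host cells in these tumours are of the mouse, while the probe sets are for human genes. The means over macrophage and other host cell markers thus cannot be read as amounts of such cells.

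With all arrays, the interferon genes themselves gave no called change. Without doxycycline tumours 4 and 5, which were chosen for their values, 1 of them was called, beside 10.1% of all genes. Both counts take either direction. Of 20 measured genes for interferons alpha, beta, gamma, lambda, omega and kappa, 0 passed in limma. Over all genes 5.03% were called higher and 5.95% lower, and so few genes can hold 0 calls at such shares. Of the 20, 0 had an unadjusted p under 0.05 in limma, beside 4307 of all 17492 genes. The 20 interferon genes averaged 2.68 in vehicle and 2.69 in doxycycline tumours, below the array medians of 5.43 to 5.53. Probe sets this dim may not show a change. The median change of the 20 genes was -0.014. Those with the smallest p were IFNL2 (0.32), IFNL3 (-0.49), IFNA10 (0.26) and IFNA5 (-0.34), and in each the groups overlapped. IFNB1 and IFNG ranged from 1.74 to 2.78 and from 1.26 to 2.16 in vehicle tumours and changed by 0.23 and 0.27.

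Over the interferon genes and 3 further lists of pathway genes, 13 of 98 rose (13.3%) and 1 fell, beside 5.03% and 5.95% of all genes. Of 23 further genes for signalling, sensing and negative control, 2 rose (8.7%), near the share over all genes. SAMHD1, which breaks down the building blocks of DNA, read 6.68, 6.75, 6.96, 7.04 and 7.18 in vehicle and 8.08, 8.0, 8.03, 7.98 and 8.10 in doxycycline tumours, a rise of 1.11 ± 0.12 (SE; adjusted p = 0.000166). TLR3, the endosomal sensor of double-stranded RNA, rose by 0.70 (adjusted p = 0.00231), and in both genes tumours 4 and 5 stayed above all vehicle tumours. DHX58, a regulator of RIGI and IFIH1, and IRF4 changed by 0.46 and -0.63 and did not pass.

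Of 39 further interferon-induced genes, 7 rose (17.9%) and 1 fell, beside 5.03% and 5.95% of all genes. APOBEC3G, a cytidine deaminase that mutates retroviral DNA, rose by 1.29 ± 0.20 (SE; adjusted p = 0.00152), APOL2 by 0.90 and the phospholipid scramblase PLSCR1 by 0.79. LY6E, a surface protein, fell by 0.93 (adjusted p = 0.0105). Of 16 genes of class I peptide loading and the immunoproteasome, 4 rose (25.0%), TAPBPL by 1.25, ERAP2 by 1.10, TAPBP by 0.61 and B2M by 0.59. Averaged over these 16 genes, vehicle tumours stood at 7.03 ± 0.09 and doxycycline tumours at 7.43 ± 0.04 (SD, n = 5 per group), from 7.39 to 7.49 among the latter. Relative to the vehicle mean, doxycycline tumours 1 to 5 stood at 0.453, 0.403, 0.393, 0.372 and 0.36. Tumours 4 and 5 were thus again lowest, but by little. Of the 16 genes, 12, 11, 13, 10 and 8 lay above all 5 vehicle arrays, beside 24.8% to 28.2% of all genes.

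By position, 13 runs of listed genes are neighbours among the protein-coding genes of their chromosome, and in 3 of the 13 the genes differed in call. Both genes rose in the pairs IFIT2 and IFIT3, SAMD9 and SAMD9L, DDX60 and DDX60L, PARP9 and DTX3L, and CMPK2 and RSAD2. In the pair HERC5 and HERC6, HERC5 alone passed, higher. In the pair IFIT1 and IFIT5, IFIT5 alone passed, and it was lower (-0.89), while IFIT1 changed by 0.80. Of the trio of IFITM genes, IFITM2 and IFITM3 passed, higher, and IFITM1 did not. How often neighbours share a call over all genes was not analysed here. None passed among OAS1, OAS3 and OAS2, among the GBP genes, in the pair MX1 and MX2, in the pair IFI44 and IFI44L, or in the pair IFNAR1 and IFNGR2.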

How the data were processed

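Per the submitters' processing notes the authors used RMA. The deposited table holds log2 values for 18569 probe sets in 10 arrays, with array medians from 5.43 to 5.53. Array model, RMA version and genome build: not given in the sources used here. Of the probe sets, 17511 carried 1 gene symbol in the platform annotation, 0 several and 1058 none. Correlations between arrays were 0.979 to 0.987 within vehicle, 0.965 to 0.985 within doxycycline and 0.954 to 0.974 between groups. The number of arrays limits the precision.

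Doxycycline was compared with vehicle over 17492 genes in R 4.3.3 with a two-sided moderated test (limma 3.58.1, group alone in the model). P-values were adjusted over the whole table by Benjamini-Hochberg, and 0.05 was the threshold. The procedure was tested on simulated data. The genes and lists were chosen with earlier results of these data known. By rule, values on every array are given for genes of the list past the threshold and for the brightest probe set of each role group. Up to 4 genes with the smallest p are named from each list outside it. Other genes given with values by array, in 1 group or both, were chosen after their values were seen. Among these are IFIT1, GBP2, OAS1, OAS2, IFI44L, IFITM1, BST2, CD274 and TRIM22. IFNB1 and IFNG, given with a range, were chosen in the same way. No set test was run, and means over lists carry no p-value. The 22 alternatives left out each array, or doxycycline arrays 4 and 5, or the dimmest 30% of genes. Others changed the scaling (median centring, repeated quantile normalization), the probe set taken, the variance moderation (trended, robust, none), the weights of arrays or the minimum fold (1.5), or added the replicate number as a block.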

Additional observations from a re-analysis of the deposited data

Results flagged for a closer look

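The 54 interferon-stimulated genes, their mean and 17 pathway genes outside the list were each checked in each group of 5 tumours for a highest or lowest array whose gap to the next exceeded 0.71 of the whole range (Dixon's test at 95%). Of 144 such groups, 6 had an array of this kind, and chance gives about 1 in 20. IFIH1 and DDX60 were lowest in doxycycline tumour 4, at 4.67 and 5.28. In doxycycline tumour 5, IFITM1 was lowest, at 7.89, and DDX60L highest, at 6.89. ISG20 was lowest in doxycycline tumour 3, at 5.91. The peptide-loading gene TAPBP was highest in vehicle tumour 3, at 7.46.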

How the results depend on the processing

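Of the 19 called genes, 9 kept their call under all 22 alternatives (IRF1, DDX60, IFIT2, IFIT3, IFIT5, PARP9, CMPK2, SAMD9L and IFI35) and 10 lost it under at least 1. No called gene changed sign. Of the genes not called, 10 gained a call of the same sign under at least 1 alternative. They were IFNAR2, IRF9, RIGI, OAS1, OAS2, OASL, USP18, PARP14, GBP2 and IFI6. PARP14 gained it under 7 and OASL under 6. IFI44L gained a call with its sign turned, without doxycycline 4 and 5. Leaving out each array gave 14 to 22 genes higher (14 without vehicle 3 or doxycycline 2, 22 without doxycycline 5) and 1 to 2 lower (2 without vehicle 2), and 595 to 908 of all genes higher. By role it gave 1 to 2 receptors and kinases, 1 to 3 membrane and GTPase genes, 1 to 2 other induced genes and, outside the list, 5 to 12 further induced genes. The Welch test called 11 of the 54 higher and 578 of all genes. By role it called 1 receptor or kinase, 1 RNA sensor, 1 membrane gene and 2 enzymes, and 5 of the further induced genes. With array weights 5 RNA sensors, 2 other induced genes and 4 further signalling genes changed, and without the dimmest 30% of genes 5 further signalling genes. A minimum of 1.5-fold left 1 receptor or kinase and 1 membrane gene. Without doxycycline 4 and 5 the median change was 0.6. Calls in either direction were then made for 1 receptor or kinase, 2 transcription factors, 6 RNA sensors, 3 other induced genes and 1 interferon gene. The cause of these shifts was not tested.

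Same-numbered vehicle and doxycycline arrays deviated together with correlations from -0.0635 to 0.191, so the numbers were not taken to pair the tumours. The fit with the replicate number as a block called 16 of the 54 genes higher, 1 of them a kinase, and 1 lower. Of the vehicle arrays, 2 correlated best with their own number.

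Signs turned in 14 genes, none of them called. Without doxycycline 4 and 5 the changes were -0.03 for IFNGR1, 0.09 for EIF2AK2, 0.07 for OAS3, 0.12 for ISG15, 0.44 for IFITM1, 0.36 for BST2, 0.04 for IFI16, 0.75 for IFI44L and -0.1 for EPSTI1. With array weights they were 0.001 for EIF2AK2, 0.08 for ISG15, 0.15 for IFITM1 and 0.12 for IFI44L. ISG15 stood at 0.003 after median centring and IFITM1 at 0.02 after a second quantile normalization. Leaving out 1 array gave -0.12 to 0.06 for IFNAR1, -0.05 to 0.18 for IFNGR1, -0.02 to 0.2 for IFNGR2, -0.12 to 0.01 for EIF2AK2, -0.18 to 0.44 for OAS2, -0.07 to 0.05 for ISG15, -0.16 to 0.38 for IFITM1, -0.07 to 0.23 for GBP1, -0.58 to 0.17 for IFI44L and -0.03 to 0.22 for XAF1. Dim probe sets such as EPSTI1, at 1.61 to 2.50 in vehicle tumours, may not show a change.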

Other observations

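The genes here were picked from the further interferon-induced genes after their values were seen, and other induced genes did rise (IRF1, APOL6). The chemokine genes CXCL9, CXCL10 and CXCL11 changed by -0.12, 0.07 and 0.21, the tryptophan-degrading enzyme gene IDO1 by 0.02, and GBP4 and GBP5 by 0.21 and 0.18. None of these 6 passed. The probe sets of CXCL9, CXCL10 and IDO1 were dim, and CXCL10 read from 1.61 to 2.44 in vehicle and from 1.67 to 2.01 in doxycycline tumours. CD274, which encodes the checkpoint ligand PD-L1, read 3.38, 3.86, 3.34, 5.22 and 6.55 in doxycycline tumours 1 to 5 and 3.48, 3.35, 4.18, 3.55 and 5.36 in vehicle tumours, a change of 0.49 (adjusted p = 0.685). It was thus highest in doxycycline tumour 5, where OAS1, OAS2 and IFITM1 were lowest of all arrays. TRIM22, an interferon-induced antiviral ligase, rose by 1.32 (adjusted p = 0.0217), from 2.92, 3.26, 3.50, 2.97 and 4.91 to 5.07, 5.14, 4.57, 4.79 and 4.58, with vehicle tumour 5 inside the doxycycline range.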
